A study of Mus musculus with 6 samples.

Results

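The Ifi200 or PYHIN genes are a cluster of interferon-inducible genes on mouse chromosome 1, and 8 of them are described here: Ifi203, Ifi204, Ifi205, Ifi206, Ifi207, Ifi209, Ifi211 and Mndal. They were chosen by name from the 56748 genes of the count table, with the difference between the sample groups already known. Their values in that comparison are therefore given as a description, without a test. All 8 were among the 14502 genes that passed the filter on low counts, but Ifi205, Ifi206 and Ifi209 passed it through the libraries labelled mock.

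RNA was sequenced from mouse adipose-derived stem cells (ADSC), stromal cells grown from fat and labelled as mesenchymal stem cells, in 6 libraries. One group of 3 libraries came from cells transduced at the same time with the integrins VLA-4 and LFA-1, which on leukocytes bind VCAM-1 and ICAM-1, and is labelled as overexpressing both. The other group of 3 is labelled mock with the genotype WT, and its cells received an empty vector per the protocol but are unmodified per the design text. The labels give no vector promoter, strain, animal age or clone, and nothing says that replicates were separate cultures, so p-values measure only the spread between these libraries.

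PYHIN proteins pair a pyrin domain, which binds other pyrin domains, with 1 or more HIN domains, which bind double-stranded DNA. Type I and type II interferons induce the mouse genes, and the proteins are known as DNA sensors that feed the cGAS and STING pathway or the inflammasome, and as regulators of transcription and growth. Cells of the macrophage lineage express the family strongly. In mouse mesenchymal cells the Ifi204 protein, p204, is known from work on bone and fat differentiation.

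Library totals ran from 15723888 to 18381083 counts. The counts of the transduced subunits were read beside the labels, and no subunit had a higher mean in the libraries labelled overexpressing. Itga4 averaged 2.51 ± 0.28 CPM (the gene count after scaling for depth) in those libraries and 6.51 ± 1.48 CPM in the libraries labelled mock (SD, n = 3, log2 fold change -1.38 ± 0.21 SE, edgeR adjusted p = 1.28e-05). Itgb1 fell by 0.32 on the log2 scale (edgeR adjusted p = 9.16e-05), Itgal had 7 counts over each group, and Itgb2 had 15 counts in the libraries labelled overexpressing and 38 in those labelled mock. The sources here do not say whether the gene counts include the transduced sequences, so these values cannot settle the labels. Directions below are therefore between libraries as labelled. All 14 stromal markers had counts. Of 13 tested, 9 were lower in the libraries labelled overexpressing, beside 23.0% of all tested genes. Lum, with 1 and 12 counts, was nearly absent. Nt5e was low, with 28 counts in the libraries labelled overexpressing and 20 in those labelled mock.

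The promoters are shown first, because the family shares a sequence there. RefSeq promoter sequences (build GRCm38.p6, an earlier build than the mm39 of the counts, 250 bases before to 50 bases after each start) were available for 7 of the 8 members, with 9 starts in all. The interferon-stimulated response element (ISRE), the site of the interferon-activated factor ISGF3 and of IRF proteins, was searched by its core, the letters GAAA, any 2 bases and GAAA again, on both strands. Ifi204 had no promoter sequence here and was not searched. The core was found in 6 of the 7 genes with a sequence and 7 of 9 promoters, and in 3.44% of all 32851 promoters. The windows of 50 bases below show it in capitals for these 6 members (for Ifi203, at the start that held it), together with the nearest stretch in Ifi209, which differs from it, and the core in Ifi214, a PYHIN gene outside them, whose promoter is 95.3% identical to that of Ifi209.
Ifi206 (chr1:173491329-173491378, minus strand): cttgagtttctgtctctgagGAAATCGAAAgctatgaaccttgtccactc
Ifi209 (chr1:173630760-173630809, plus strand): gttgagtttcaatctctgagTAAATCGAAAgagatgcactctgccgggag
Ifi214 (chr1:173536007-173536056, minus strand): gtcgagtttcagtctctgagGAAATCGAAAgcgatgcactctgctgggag
Ifi207 (chr1:173741821-173741870, minus strand): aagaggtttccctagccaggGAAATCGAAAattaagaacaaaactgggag
Ifi211 (chr1:173913054-173913103, minus strand): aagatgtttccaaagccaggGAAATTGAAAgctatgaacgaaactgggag
Ifi205 (chr1:174031860-174031909, minus strand): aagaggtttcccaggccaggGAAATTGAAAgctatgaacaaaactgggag
Mndal (chr1:173880194-173880243, minus strand): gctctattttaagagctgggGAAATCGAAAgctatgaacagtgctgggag
Ifi203 (chr1:173942498-173942547, minus strand): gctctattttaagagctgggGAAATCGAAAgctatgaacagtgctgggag

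The commonest core was GAAATCGAAA, here read in the direction of the gene and numbered from 1 at its 5′ end. Ifi211 and Ifi205 differed from it by C6T, which keeps the searched core. Ifi209 differed by G1T, which removes it, and was the member, among those searched, with no match in its promoter. The core began 35 to 41 bases before the start of Ifi203, Mndal, Ifi211, Ifi206 and Ifi207, and 134 bases before that of Ifi205. The changed stretch of Ifi209 began 79 bases before its start. Matches on the opposite strand also lay 54 bases before the second start of Mndal and 24 bases after the start of Ifi205. The windows of Ifi203 and Mndal are the same letter for letter, and their 300-base promoters are 90.3% identical. The promoters of Ifi207 and Ifi211 are 85.7% identical, and that of Ifi206 is 87.0% identical to that of Ifi208. A GAS core (TTCNNNGAA, the site of the type II interferon response) was in 0 of the 9 member promoters and in 8.30% of all promoters. A match describes these letters only, and no binding was measured.

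All 8 members were lower in every library labelled overexpressing than in any labelled mock. Over all tested genes, 26.5% were lower with no overlap between the groups, and 23.0% were called lower at an edgeR adjusted p under 0.05. That was 3339 genes lower beside 3233 higher, and 2385 lower beside 4598 higher when scaled by library size only. The members together held 659, 621 and 721 counts in the libraries labelled overexpressing, against 5800, 5156 and 5602 in those labelled mock. Their summed level was 35.1, 37.7 and 40.1 CPM in the libraries labelled overexpressing and 329, 292 and 346 CPM in those labelled mock. The spread within each group was small beside the gap between the groups. In RNA from whole cultures, fewer cells that express a gene and less RNA per cell cannot be told apart.

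**Figure D1:**
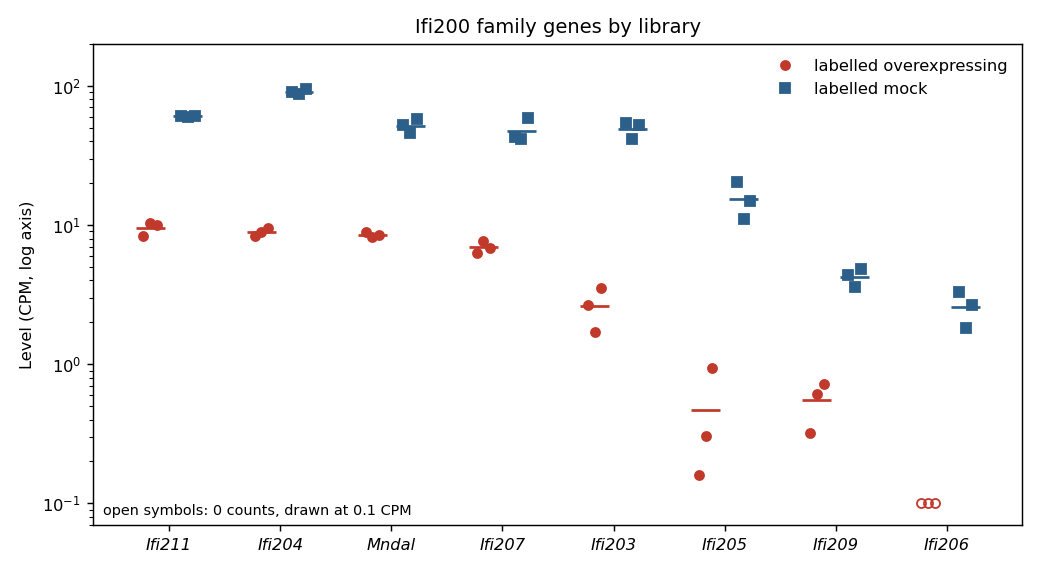
Level of each member in each library, in CPM on a log axis, with circles for the libraries labelled overexpressing, squares for those labelled mock and a line at the mean of 3. The groups are apart for every member, and Ifi206 has 0 counts in each library labelled overexpressing (open circles, drawn at 0.1 CPM).

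Ifi204 encodes p204, a nuclear and cytosolic DNA sensor that signals through STING. Its gene (ENSMUSG00000073489, chromosome 1, 173574859 to 173594509, mm39, minus strand) is protein-coding, as are the other 7. Ifi204 had 8.40, 8.92 and 9.56 CPM in the libraries labelled overexpressing, and 90.3, 87.6 and 94.9 CPM in those labelled mock. It was the most even of the members in its drop, 10.2-fold, with 9.17-fold to 11.3-fold between any library of one group and any of the other. Ifi207 (ENSMUSG00000073490, 173550993 to 173569313), whose protein is reported to stabilise STING in mouse, had 6.33, 7.65 and 6.84 CPM in the libraries labelled overexpressing. It had 43.0, 41.8 and 58.4 CPM in the libraries labelled mock, of which replicate 3 stood above the other two. The ratio of its means was 6.88-fold lower.

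Mndal (ENSMUSG00000090272, 173676692 to 173708447), a nuclear protein that slows proliferation in mouse cells, had the least change of the 8. It had 8.88, 8.26 and 8.45 CPM in the libraries labelled overexpressing, and 52.6, 45.6 and 57.4 CPM in those labelled mock. The ratio was 6.08-fold lower, close to the 6.32-fold of Ifi211 (ENSMUSG00000026536, 173723911 to 173740612). Ifi211 had 8.30, 10.3 and 10.1 CPM in the libraries labelled overexpressing, and 60.8, 59.4 and 60.7 CPM in those labelled mock. The library-pair ranges of Mndal (5.13 to 6.96) and Ifi211 (5.79 to 7.33) overlapped each other and that of Ifi207 (5.47 to 9.23), so the order among these genes is within the spread. Mndal and Ifi211 did not reach the 9.17-fold that was the smallest ratio of Ifi204.

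Ifi203 (ENSMUSG00000039997, 173747973 to 173770238) and Ifi205 (ENSMUSG00000054203, 173839564 to 173859376) showed larger drops. Ifi203 had 2.66, 1.70 and 3.50 CPM in the libraries labelled overexpressing, and 54.5, 41.5 and 52.1 CPM in those labelled mock, 18.8-fold lower with a library-pair range of 11.9 to 32.1. Ifi205, whose protein is known in mouse macrophages to regulate the inflammasome adaptor gene Pycard, had 0.16, 0.303 and 0.945 CPM in the libraries labelled overexpressing. In the libraries labelled mock it had 20.4, 11.1 and 14.9 CPM. The 25 counts of Ifi205 in the libraries labelled overexpressing were uneven, with 3, 5 and 17 by replicate. Its ratio was 33.0-fold with all libraries (95% counting interval 22.2 to 51.3), and 66.8-fold without overexpressing replicate 3.

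Ifi206 (ENSMUSG00000037849, 173296051 to 173318607) and Ifi209 (ENSMUSG00000043263, 173458483 to 173475494) were the members of lowest level in the libraries labelled mock. In those labelled overexpressing Ifi205 lay below Ifi209. Ifi206 had 0 counts in each library labelled overexpressing, and 58, 32 and 43 counts, or 3.29, 1.82 and 2.66 CPM, in those labelled mock. With 3 counts as the floor for the whole group, the level was at least 45.9-fold lower. This bound was 29.7-fold without overexpressing replicate 1, 31.6-fold without replicate 2 and 30.4-fold without replicate 3, since fewer libraries then share the floor. In each of these 3 libraries, 3 counts correspond to 0.16 to 0.182 CPM. Ifi209, the only member on the plus strand, had 6, 10 and 13 counts in the libraries labelled overexpressing, and 77, 63 and 78 in those labelled mock. That is 7.74-fold lower, and the counting interval of the pooled ratio was 5.27 to 11.9. Counting intervals and floors cover counting error only.

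**Figure D2:**
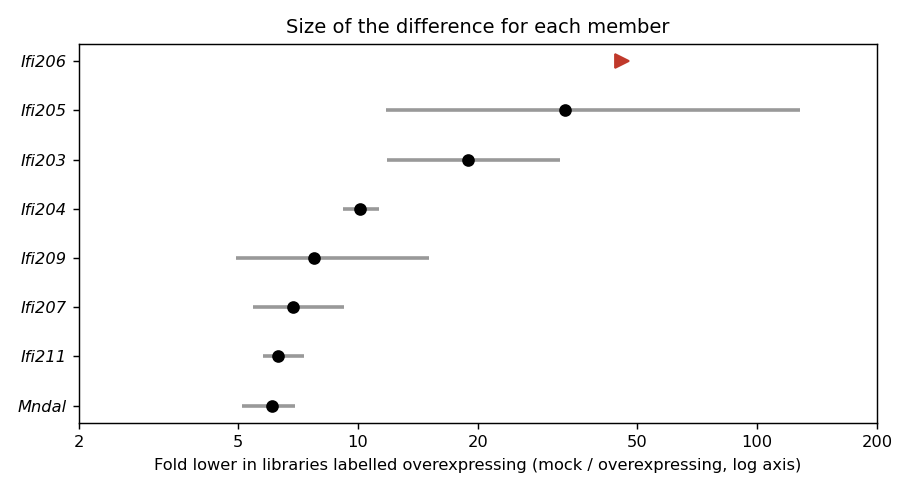
Ratio of mean CPM, mock over overexpressing, for each member on a log axis (dots). Bars run from the smallest to the largest ratio between a library of each group, and the arrowhead is the bound of Ifi206. Mndal, Ifi211 and Ifi207 lie between 6 and 7, Ifi204 at 10.2, Ifi203 at 18.8 and Ifi205 at 33.0.

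Mock replicate 2 held the lowest level of all 8 members among the libraries labelled mock. It was also the lowest for 33 of 38 interferon-stimulated genes outside the family. The same was not counted over all tested genes. The gap to the next mock library was small for Ifi211 (59.4 against 60.7 CPM) and Ifi207 (41.8 against 43.0 CPM). It was wider for Ifi205 (11.1 against 14.9 CPM). Mock replicates 1 and 3 were highest for 4 members each. Among the libraries labelled overexpressing no single library was highest or lowest throughout: for the 7 members with counts, replicates 1, 2 and 3 were highest for 1, 2 and 4, and lowest for 5, 2 and 0. Replicates in a group have no order, and these counts describe single libraries.

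Levels of different genes were compared per length, with the FPKM values (counts scaled for depth and per kilobase of gene) that the authors deposited. In the libraries labelled overexpressing Ifi211 stood highest with 5.29 ± 0.58 FPKM, followed by Ifi204 with 2.49 ± 0.16, Mndal with 2.35 ± 0.10 and Ifi207 with 2.01 ± 0.18 FPKM (SD, n = 3). Ifi203 (0.387 ± 0.134 FPKM), Ifi209 (0.153 ± 0.058 FPKM) and Ifi205 (0.111 ± 0.099 FPKM) came next, and Ifi206 was listed at 0. Ifi204 and Mndal overlapped there, as did Ifi209 and Ifi205. The libraries labelled mock had Ifi211 highest as well, with 33.6 ± 0.31 FPKM, then Ifi204 (25.4 ± 0.92), Mndal (14.4 ± 1.59), Ifi207 (13.9 ± 2.64), Ifi203 (7.33 ± 1.0), Ifi205 (3.69 ± 1.11), Ifi209 (1.19 ± 0.17) and Ifi206 (0.843 ± 0.239 FPKM). Mndal and Ifi207 overlapped, and so did Ifi209 and Ifi206. The order was the same in both groups except that Ifi209 stood above Ifi205 in the libraries labelled overexpressing and below it in those labelled mock.

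As a share of the family's summed FPKM, which does not depend on the scaling between libraries, Ifi211 made up 41.3% ± 2.0 in the libraries labelled overexpressing and 33.6% ± 2.0 in those labelled mock. Mndal made up 18.5% ± 2.1 and 14.3% ± 0.65 in the same order of groups. Ifi204 had a smaller share in the libraries labelled overexpressing, 19.5% ± 0.55, than in those labelled mock, 25.4% ± 0.89. Ifi203 made up 3.03% ± 1.0 in the libraries labelled overexpressing and 7.29% ± 0.67 in those labelled mock, and Ifi205 0.843% ± 0.717 and 3.66% ± 1.02. These shares did not overlap between the groups, while those of Ifi207 and Ifi209 did.

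**Figure D3:**
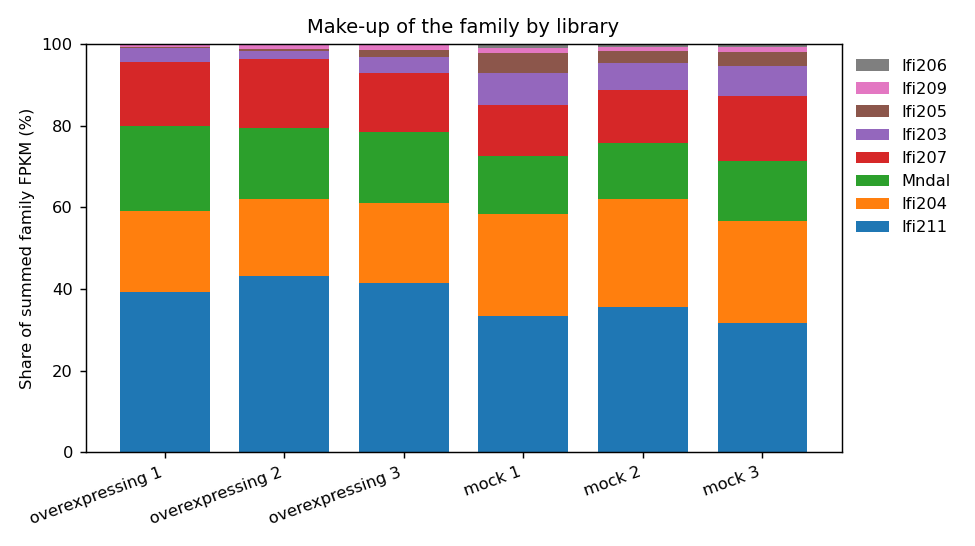
Share of each member in the summed FPKM of the 8 members, in percent, for each library. Ifi211 takes 39.2% to 43.3% in the libraries labelled overexpressing and 31.7% to 35.7% in those labelled mock, and the bands of Ifi203 and Ifi205 are wider in the libraries labelled mock.

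Near-identical copies can share reads, so the sequence overlap was measured in the GENCODE M21 transcripts of each gene. The share of a gene's stretches of 100 bases that also occur in a transcript of another gene was 56.9% for Ifi211. Of all Ifi211 stretches, 37.2% occurred in Ifi205 and 19.6% in Ifi204. The share with any other gene was 16.9% for Ifi209, shared with Ifi214, 15.04% for Ifi205, 13.1% for Ifi206 and 10.7% for Ifi204. It was 6.38% for Mndal, 2.84% for Ifi203 and 0.79% for Ifi207. Neither the read length nor the handling of reads with several matches is known here, so the level of Ifi211 in particular is uncertain. Ifi203 and Ifi207, with the least shared sequence, were 18.8-fold and 6.88-fold lower. The only genes whose spans overlap a member, a miRNA gene at Ifi209 and the pseudogene Gm38050 at Mndal, had 0 counts.

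Of the other PYHIN genes of the table, all but the pseudogene Ifi203-ps were near the limit of detection. Aim2, the DNA sensor of the inflammasome, had 4, 2 and 4 counts in the libraries labelled overexpressing and 20, 3 and 6 in those labelled mock, which overlapped. Ifi208 had 0 counts in the libraries labelled overexpressing, and 16, 7 and 4 in those labelled mock. Ifi213 had 2 and 9 counts, Ifi214 had 0 and 6, and Ifi202b, whose protein lacks a pyrin domain, had 0 and 2. The pseudogene Ifi203-ps passed the filter, with 2, 7 and 1 counts in the libraries labelled overexpressing, and 38, 51 and 67 in those labelled mock. Its mean was 15.7-fold lower, and 37.8-fold lower without overexpressing replicate 2, which held most of the 10 counts. It shares 4.93% of its stretches with Ifi203.

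Genes beside the cluster were examined next. The members span 563 kb, and 68 other genes lie within 1 Mb of that span, of which 20 had a count and 7 were tested. Of these 7, 1 was lower and 3 were higher in the libraries labelled overexpressing, with a median log2 fold change of 0.26 against 0.005 for all genes, of which 23.0% were lower and 22.3% higher. The balance turned with the window: within 2 Mb, 7 of 21 tested genes were lower and 5 higher. Cadm3, a cell adhesion molecule 101 kb before the cluster, averaged 3.40 ± 0.61 CPM in the libraries labelled overexpressing and 2.03 ± 0.47 CPM in those labelled mock (log2 fold change 0.73 ± 0.26 SE, edgeR adjusted p = 0.0236). That call was lost without mock replicate 3 (adjusted p = 0.114), overexpressing replicate 2 (0.0597) or overexpressing replicate 3 (0.101), and by DESeq2 (0.0725).

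Farther off, the formin gene Fmn2 rose by 0.77 (SE 0.19, edgeR adjusted p = 0.00197) on the log2 scale. Tagln2, an actin-binding protein 961 kb before the cluster, fell by 0.85 on the log2 scale (SE 0.064, adjusted p = 2.7e-10). Cfap45 (0.46, SE 0.50) and Dusp23 (-0.09, SE 0.21) did not pass the test, with edgeR adjusted p-values of 0.477 and 0.762. None of the 7 neighbours was lower by as much as any member.

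**Figure D4:**
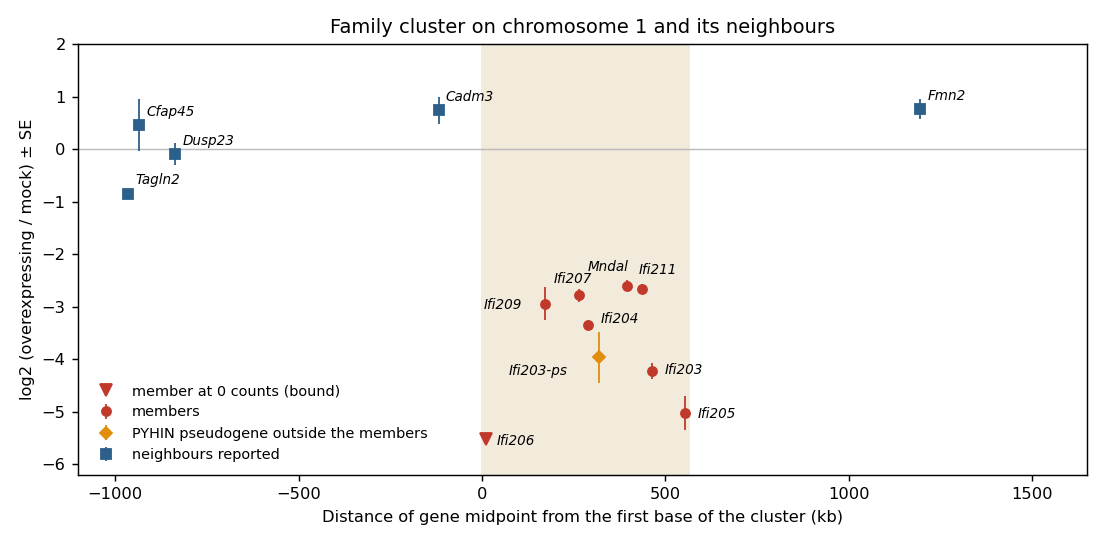
Log2 ratio of overexpressing over mock (edgeR, with SE) against the distance of each gene's midpoint from the first base of the cluster, in kb; the shaded band is the span of the 8 members. The 5 neighbours drawn lie between -0.85 and 0.77, and the members with counts in both groups between -2.60 and -5.02. Ifi206 is drawn at its bound (triangle) and the pseudogene Ifi203-ps as a diamond.

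Genes that act with the family were taken from lists chosen with earlier results of these data known. In DNA sensing, which carries the signal from cytosolic DNA to STING, 13 of 31 tested genes fell (41.9%) and 7 rose (22.6%), beside 23.0% and 22.3% of all tested genes, and the median log2 fold change was -0.08. The share that rose was thus near that of all genes. Sting1, the adaptor itself, had 26.8, 25.7 and 25.6 CPM in the libraries labelled overexpressing, and 39.2, 41.9 and 39.3 CPM in those labelled mock. That is a fall by 0.62 on the log2 scale (SE 0.08, edgeR adjusted p = 1.21e-06), with no overlap. Cgas, the enzyme that makes the STING ligand, averaged 5.20 ± 0.76 CPM in the libraries labelled overexpressing and 5.11 ± 0.58 CPM in those labelled mock (edgeR adjusted p = 0.933). The kinase Tbk1 (log2 fold change 0.12, SE 0.078) and the factor Irf3 (-0.05, SE 0.097), which act below STING, did not pass the test either (edgeR adjusted p = 0.208 and 0.724). Tbk1 was called higher when scaled by library size only (adjusted p = 0.0166).

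The largest falls in that list were in genes that interferon also induces. Zbp1, a sensor of Z-form nucleic acid, averaged 2.42 ± 0.76 CPM in the libraries labelled overexpressing and 78.0 ± 8.87 CPM in those labelled mock. Irf7, which amplifies interferon transcription, averaged 6.32 ± 0.65 and 148 ± 16.6 CPM in the same order, and Usp18, which restrains interferon signalling, 5.30 ± 0.95 and 119 ± 14.6 CPM. Trim21, Dtx4 and Samhd1 also fell, with log2 fold changes of -1.89, -1.303 and -0.85 (SE 0.12, 0.12 and 0.063).

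In the inflammasome list, 9 of 17 tested genes fell (52.9%, beside 23.0% of all tested genes) and 1 rose (5.88%, beside 22.3%). The median was -0.49. Casp1, the protease that inflammasomes activate, had 1.81, 1.34 and 1.28 CPM in the libraries labelled overexpressing, and 3.01, 4.14 and 3.64 CPM in those labelled mock (log2 fold change -1.28, SE 0.26, edgeR adjusted p = 0.00037). Casp4, which in mouse is the sensor of cytosolic lipopolysaccharide, fell by 2.13 on the log2 scale (SE 0.12), and Gsdmd, the pore protein of pyroptosis, had a log2 fold change of -1.17 (SE 0.099). Il18bp, Casp8 and Txnip also fell, with log2 fold changes of -1.33, -0.49 and -0.38. The adaptor Pycard stood at 1.46 ± 0.61 CPM in the libraries labelled overexpressing and 1.33 ± 0.24 CPM in those labelled mock (edgeR adjusted p = 0.797). Il1b had 1 count in the libraries labelled overexpressing and 0 in those labelled mock, and Il18 did not pass the test (log2 fold change -0.59, SE 0.37, edgeR adjusted p = 0.207).

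The interferon signalling list holds interferons, receptors, kinases and transcription factors, and also inhibitors such as Socs3. Of 21 tested genes, 15 fell (71.4%, beside 23.0% of all tested genes) and 3 rose (14.3%, beside 22.3%), and the median was -0.39. Stat2, a subunit of ISGF3, averaged 28.7 ± 2.71 CPM in the libraries labelled overexpressing and 109.3 ± 10.98 CPM in those labelled mock (log2 fold change -1.93 ± 0.083 SE, edgeR adjusted p = 1.39e-14). Irf9, another subunit, fell by 1.63 on the log2 scale (SE 0.082). Irf1, a factor of the type II response, fell by 1.04, the feedback inhibitor Socs3 by 1.46, and Stat3 by 0.42. Of the receptors, Ifnar2 fell by 0.86 (SE 0.092) and Ifngr1 by 0.56 (SE 0.08), while Ifnar1 averaged 80.3 ± 5.60 CPM in the libraries labelled overexpressing and 81.9 ± 5.65 CPM in those labelled mock (edgeR adjusted p = 0.762). Ifnb1 had 0 counts in the libraries labelled overexpressing and 5 in those labelled mock, all in mock replicate 2. Ifng had 0 and 3 counts.

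Proteins that bind p204 or the related p202, among them the retinoblastoma family, the Id proteins and NF-kB, were called in both directions. Of 19 tested genes, 4 fell (21.05%, near the 23.0% of all genes) and 6 rose (31.6%, above the 22.3% of all genes). The median was 0.02. Without mock replicate 3 or overexpressing replicate 3, 2 were lower. Rb1, the retinoblastoma protein that p204 binds, averaged 38.7 ± 5.59 CPM in the libraries labelled overexpressing and 31.9 ± 2.40 CPM in those labelled mock (log2 fold change 0.28, SE 0.096, edgeR adjusted p = 0.0208). Its call was lost by DESeq2 (adjusted p = 0.0508) and when mock replicate 1 (0.0655), mock replicate 3 (0.0899) or overexpressing replicate 3 (0.198) was left out. Id3 fell by 0.15 (SE 0.059, adjusted p = 0.0376), a call lost by library size only (0.593), with replicate 1 (0.0558) or 3 (0.173) of mock left out, and with replicate 1 (0.1) or 3 (0.106) of overexpressing left out. Rbl2 rose by 0.26 (SE 0.084, adjusted p = 0.0159), a call lost with replicate 2 (0.0804) or 3 (0.0661) of mock or replicate 1 of overexpressing (0.0608) left out.

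Id2, Jun, Rela and Trp53bp1 rose, with log2 fold changes of 0.46, 0.73, 0.47 and 0.32, while Nfkb1 fell by 0.52 (SE 0.065, edgeR adjusted p = 8e-07). The ribosomal transcription factor Ubtf and the osteoblast factor Runx2, both bound by p204, did not pass the test (log2 fold changes -0.10 and -0.15, SE 0.064 and 0.087, edgeR adjusted p = 0.242 and 0.18). Id1 did not pass it with all libraries (-0.15, adjusted p = 0.135) but was called lower without mock replicate 1 (0.0497) or overexpressing replicate 2 (0.0368).

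The 38 interferon-stimulated genes outside the family, a list also chosen with earlier results known, were all lower, beside 23.0% of all tested genes. None was higher, beside 22.3% of all tested genes, and the median was -3.44 against 0.005 for all genes. For comparison, the fitted values of the members with counts ran from -2.60 for Mndal to -5.02 for Ifi205. Isg15, Ifit1, Oasl2 and Gbp3 had log2 fold changes of -5.27, -4.51, -4.82 and -4.13, and Bst2 and Irgm1 had -3.41 and -2.51. The genes whose profile over the 6 libraries was most like the mean profile of the members, among 12049 protein-coding genes of at least 1 CPM, were Oas3 (Pearson r = 1.0), Tgtp2, Cmpk2, Uba7 and Trim30a (0.999 or more each, on log2 of CPM plus 1). The gap between the groups dominates such a correlation, and 312 genes had an r over 0.99.

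**Figure D5:**
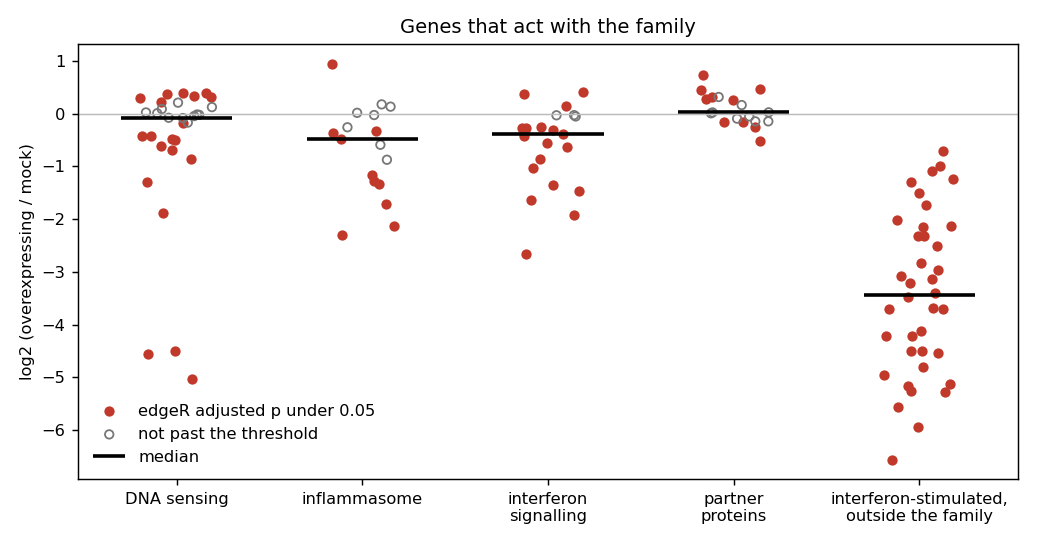
Log2 ratio of overexpressing over mock for each tested gene of the 5 lists, with filled dots for an edgeR adjusted p under 0.05, open dots for the rest and a bar at the median. The medians are -0.08, -0.49, -0.39, 0.02 and -3.44 from left to right.

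Markers of other cell types were read beside these results, since macrophages and dendritic cells express PYHIN genes. The 20 macrophage and dendritic markers summed to 17.1 to 21.3 CPM in the libraries labelled overexpressing and 22.4 to 25.9 CPM in those labelled mock, and 1 of the 4 tested was lower. That gene was Csf1r, at 8.42 and 13.1 CPM. The other tested markers, Cd68 (209 and 161 counts in the same order of groups), Cd14 (154 and 113) and Lyz2 (140 and 201), were present in both groups and did not pass the test (edgeR adjusted p = 0.255, 0.263 and 0.0743). Ptprc had 5 counts in the libraries labelled overexpressing and 8 in those labelled mock, Adgre1 had 0 and 5, and Aif1 had none. The 11 lymphocyte markers summed to at most 0.479 CPM in a library, with 5 at 0 throughout. Of the 8 endothelial markers, 4 were tested, 1 was lower and 1 higher, and the sums were 22.1 to 23.0 CPM in the libraries labelled overexpressing and 16.1 to 19.5 CPM in those labelled mock. The higher sum came from Tek alone, at 15.5 and 6.02 CPM, and the other 7 markers each had a lower mean, among them Pecam1 at 0.19 and 1.3 CPM.

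Schwann cell markers moved with the family. The 8 summed to 4.68 to 5.11 CPM in the libraries labelled overexpressing and 29.0 to 35.2 CPM in those labelled mock. Of the 6 tested, 5 were lower, beside 23.0% of all tested genes. Cdh19 and Foxd3 were at 0 in the libraries labelled overexpressing. Ngfr, the low-affinity neurotrophin receptor, averaged 0.144 CPM in the libraries labelled overexpressing and 16.6 CPM in those labelled mock. Their part in the lower levels of the members, the interferon-stimulated genes, the sensing genes and the inflammasome genes was not tested.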

How the data were processed

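RNA sequencing gave 3 libraries labelled overexpressing and 3 labelled mock, grouped by their titles. Gene counts, not normalized, and FPKM values were deposited by the authors. The submitters' processing notes name build mm39, featureCounts 1.5.0-p3, HISAT2 2.0.5, fastp and StringTie 1.3.3b. What each tool did, the strand setting and the annotation release are not given in the sources here. The group means (a size-factor-scaled signal), log2 fold changes and p-values that the authors deposited were not used.

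Counts were tested with edgeR (version 4.0.16, R version 4.3.3), the quasi-likelihood test, TMM scaling and filterByExpr (minimum count 10), with group as the only term and Benjamini-Hochberg adjustment over 14502 genes at 0.05. The test was tried on simulated counts. CPM levels use the TMM scaling, with SD over libraries. Any pair of libraries in a group differed beyond counting error (chi-square over degrees of freedom 3.55 to 7.47), so each counted once. Intervals are exact at 95%. Alternatives were DESeq2 (version 1.42.0), other scalings, no filter, a replicate block, each library left out, other windows and deposited FPKM.

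The members and lists were chosen with earlier results of these data known. Named genes were the members, other PYHIN genes, the integrin subunits, the 6 smallest p of each list, a fixed set of central genes, the tested protein-coding neighbours and the 5 genes of most similar profile. Ifng and the markers named singly fall outside that rule and were named after their values were seen. Some genes that the rule names are not reported here.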

Additional observations from a re-analysis of the deposited data

How the results depend on the processing

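No member changed direction under any alternative run, and 87 of 92 member values moved by less than the spread between libraries. The other 5 were Ifi204 scaled by library size only (log2 ratio -3.23 in place of -3.34), Ifi205 without overexpressing replicate 3, and the bound of Ifi206 without each library labelled overexpressing, which weakens because fewer libraries share the floor. With each library left out in turn, the log2 ratio of Ifi205 ran from -6.06 to -4.63 and the bound of Ifi206 from -5.73 to -4.89. Leaving out each library for Ifi203-ps was chosen after seeing the data.

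With library size only as the scaling, all genes had a median of 0.116 in place of 0.005 on the log2 scale, and 4598 were higher and 2385 lower in place of 3233 and 3339. Under it 2 inflammasome genes were higher and 1 partner gene was lower. The partner genes that were lower numbered 2 to 3 with a library left out. The count of neighbours was 5 higher and 7 lower of 21 tested within 2 Mb, and 0 lower within 0.5 Mb, because the window holds other genes. The 38 interferon-stimulated genes outside the family were lower under every alternative run.

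Same-numbered libraries did not deviate together (correlations 0.003 to 0.016), and with the replicate block 3183 genes were higher and 3297 lower. Shared stretches of a member ranged up to 72.8% at 50 bases and 46.4% at 150 bases, lengths chosen after seeing the data. Depth limits Ifi206, Ifi205, Ifi209 and the other PYHIN genes.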

Other observations

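The ISRE core was also counted in promoters outside the members. Of the PYHIN genes outside the members, Ifi208, Ifi213 and Ifi214 held it (3 of 5 genes with a promoter), and Aim2 and Ifi202b did not. Of the interferon-stimulated genes outside the family, 18 of 30 genes with a promoter held it. The GAS core was in 8 of these 30 genes. Among all 27025 genes with a promoter, 1079 held the ISRE core and 2582 the GAS core. These are counts of letters in 300-base windows of the GRCm38.p6 promoters, and no factor binding was measured.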
